A study of Homo sapiens with 4 samples.

Results

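Ras-induced senescence was compared with proliferation in the DMSO-treated cells of a ribosome profiling experiment, with 1 library for each state. The genes compared were the nuclear genes that reached 40 counts summed over the 4 libraries of the experiment, 11128 of the 57783 nuclear features counted. The cells were BJ-Ras-ER cells, human primary BJ fibroblasts that carry hTERT and an oncogenic H-Ras that 4-hydroxytamoxifen (4-OHT) switches on. Proliferating cells were not induced, oncogene-induced senescent (OIS) cells received 100 nM 4-OHT for 12 days, and all cells received DMSO or 10 µM GC7, an inhibitor of the hypusination of eIF5A, for 18 h before lysis. The 2 DMSO libraries are the comparison described here, and the 2 GC7 libraries gave the same ratio in libraries that it did not use. The sample labels contradict each other for the proliferating GC7 and the OIS DMSO library, where the title and the treatment entry name different treatments, and the titles were followed. The labels of the state, proliferating or senescent, come from the titles and nothing contradicts them. All cells, controls included, carry hTERT and the inducible Ras, and senescence was induced by Ras alone, in this line only.

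Oncogene-induced senescence is a lasting arrest of the cell cycle that follows strong Ras and MAP kinase signalling. Inhibitors of cyclin-dependent kinases keep the RB proteins active, so that E2F target genes for DNA replication and mitosis are repressed, lamin B1 is lost and the lysosomal compartment grows. Senescent fibroblasts also secrete cytokines, chemokines, growth factors and proteases, together called the senescence-associated secretory phenotype (SASP).

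Ribosome footprints are the pieces of mRNA that ribosomes protect from nuclease, and no RNA-seq was used here, so that a difference in mRNA level and a difference in ribosome occupancy cannot be told apart. In bulk samples, fewer cells that express a gene and less RNA per cell cannot be told apart either. Counts are given for proliferating and then OIS cells, first in the DMSO pair and then in the GC7 pair. The log2 ratio is that of OIS over proliferating cells, of counts scaled with the TMM method. Before scaling, a prior count was added that averaged 1 over the pair and was proportional to library size. The range in parentheses is the 95% exact interval of the ratio without the prior count. That interval covers counting error only, and with 1 library per condition there is no replicate check and no test of the DMSO pair. Levels, where given, are TMM-scaled and in CPM. A gene is called higher or lower in OIS cells where the ratio was at least 2-fold and the interval excluded equal levels. The state effect over all 4 libraries is the one quantity with a test, edgeR's quasi-likelihood test in a model of treatment and state, which has 1 residual degree of freedom. Its p-values measure the spread left between these libraries, which treatments and states share, and not that of replicate cultures.

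The libraries held between 3039026 counts, in OIS DMSO, and 6553835 counts, in proliferating GC7. Mitochondrial genes, which were left out of the scaling and of all comparisons, took 2.886% of the counts in proliferating DMSO and 12.16% in OIS DMSO, against 0.02812% and 0.1411% in the GC7 libraries. The 10 largest nuclear features took between 6.37% and 10.3% of the nuclear counts of a library. The largest in OIS DMSO was DICER1, with 14113 and 64225 counts in the DMSO pair and 1335 and 2842 in the GC7 pair. No source used here states how reads of overlapping features were assigned, and the count of this feature is uncertain.

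Of the 11128 genes, 1562 (14%) were called higher and 1399 (12.6%) lower in OIS DMSO. The share of calls that were higher was 52.8%, and it was 27.5% when the libraries were scaled by their total count, a scaling that moved the median log2 ratio of all genes from -0.02 to -0.40. The middle of the distribution was narrow, with quartiles at -0.60 and 0.61. The GC7 pair had 1333 genes (12%) called higher and 1287 (11.6%) lower. Among the 1562 genes called higher in the DMSO pair, 943 had the same call in the GC7 pair, 609 had no call there and 10 had the opposite call. These 943 are 60.4% of the calls of the DMSO pair and 70.7% of those of the GC7 pair. For lower genes, the shared number was 719, which is 51.4% and 55.9% of the calls, with 675 not called and 5 opposite. Across genes, which are not independent replicates and share the libraries' scaling, the ratios of both pairs had a Pearson r of 0.773 and a Spearman rho of 0.719. The edgeR quasi-likelihood test called 2001 genes (18%) higher and 1609 (14.5%) lower over all 4 libraries at an adjusted p under 0.05. These held 1290 of the higher and 986 of the lower calls of the DMSO pair. The test also used the libraries of that pair, so the overlap is no separate check.

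**Figure D1:**
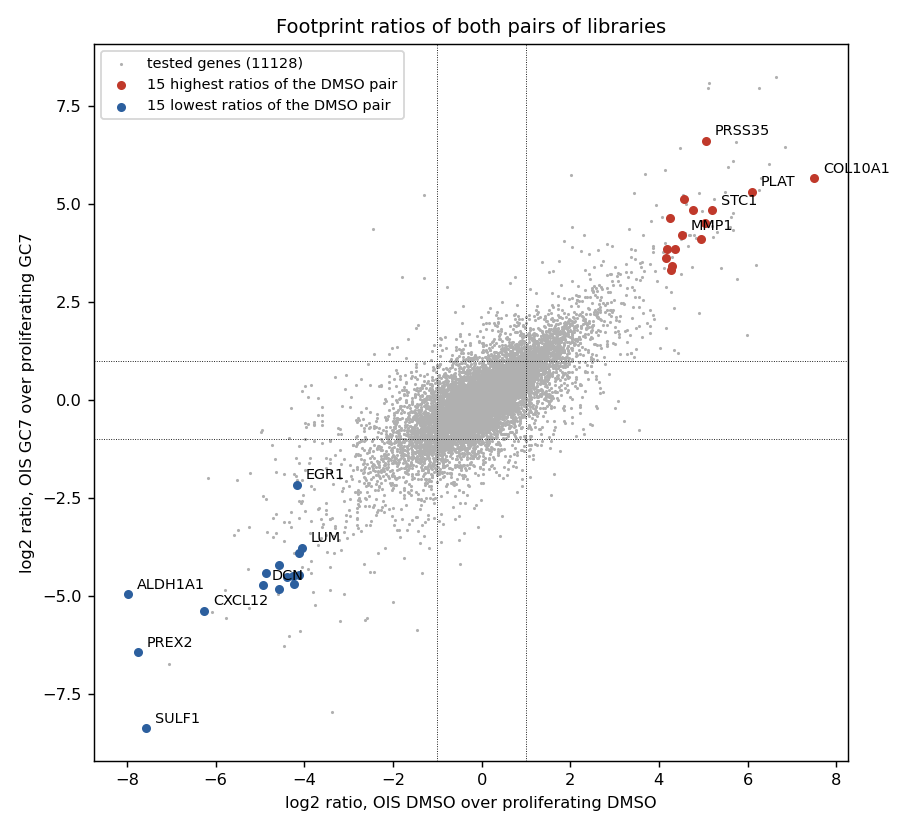
Log2 ratio of OIS over proliferating cells in the DMSO pair (horizontal axis) against that in the GC7 pair (vertical axis). Each grey point is 1 of 11128 genes, dotted lines mark a 2-fold difference, and the 15 highest and 15 lowest named genes of the DMSO pair with at least 200 counts are coloured. All of these lie on the same side of 0 in the GC7 pair, from COL10A1 at 7.50 in the DMSO pair to ALDH1A1 at -7.97.

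The 15 highest ratios lay between 4.17 and 7.50 on the log2 scale. COL10A1 (hg19 chr6:116440086-116479910, minus strand), a collagen of hypertrophic cartilage, had 2 and 293 counts in the DMSO pair and 12 and 421 in the GC7 pair, with a log2 ratio of 7.50 (6.37 to 11.29). PLAT, the tissue-type plasminogen activator, had 589 and 19505 and 1602 and 40075 counts and a log2 ratio of 6.09 (5.97 to 6.21). For STC1, a secreted glycoprotein hormone, the counts were 241 and 4336 and 447 and 8110 and the log2 ratio 5.20 (5.02 to 5.40). The OIS libraries were above the proliferating libraries for all 3 genes, whatever the treatment. PRSS35, a secreted serine protease-like protein, had 126 and 2058 and 73 and 4551 counts and a log2 ratio of 5.06 (4.81 to 5.34) in the DMSO pair and 6.60 (6.29 to 6.97) in the GC7 pair. NTM, a neural cell adhesion protein anchored in the membrane, had 18 and 308 and 48 and 710 counts and a log2 ratio of 5.04 (4.45 to 5.91). SCUBE3, a secreted protein with EGF-like repeats, had 163 and 2454 and 475 and 5186 counts and a log2 ratio of 4.94 (4.72 to 5.19). The remaining 9 of the 15 were DOCK4, an activator of Rac, the tetraspanin-like TM4SF1, the collagenase MMP1, MAMDC2, TMEM158, a membrane protein first described as Ras-induced in senescence, the AMPA receptor auxiliary protein CNIH3, the tight junction protein CLDN1, the receptor-like DCBLD2 and TMEM200A. Their log2 ratios lay between 4.17 and 4.76 in the DMSO pair and between 3.31 and 5.13 in the GC7 pair. Each of the 15 had an adjusted p of 9.3e-07 or less for the state effect in edgeR's test, the largest being that of CNIH3. That test also used the DMSO libraries by which these genes were picked, so small p-values are no separate support.

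The 15 lowest ratios lay between -7.97 and -4.06. ALDH1A1 (hg19 chr9:75515578-75695358, minus strand), which makes retinoic acid from retinaldehyde, had 2401 and 4 counts in the DMSO pair and 2331 and 47 in the GC7 pair, with a log2 ratio of -7.97 (-10.07 to -6.83). PREX2, an exchange factor for Rac, had 290 and 0 and 240 and 1 counts, at least 47.0-fold lower in OIS DMSO when 3 counts are taken as the floor of a library at 0. SULF1, which removes sulfate from heparan sulfate outside the cell, had 256 and 0 and 405 and 0 counts, at least 41.5-fold lower by the same floor. Both genes were thus at or next to 0 in both OIS libraries. CXCL12, the chemokine that binds CXCR4, had 260 and 1 and 247 and 3 counts and a log2 ratio of -6.26 (-12.29 to -4.49). CRABP2, which carries retinoic acid to its nuclear receptors, had 1732 and 35 and 1599 and 54 counts and a log2 ratio of -4.56 (-5.11 to -4.11). ID2, an inhibitor of basic helix-loop-helix transcription factors, had 612 and 15 and 1152 and 32 counts and a log2 ratio of -4.25 (-5.16 to -3.58). The other members of this group were the proteoglycans DCN and LUM, the kinase anchor protein SPHKAP, PLAC8, the muscarinic receptor CHRM2, the axon guidance protein SLIT2, the immediate early factor EGR1, the scavenger receptor OLR1 and IGFBP5, with log2 ratios between -4.93 and -4.06. In the GC7 pair their log2 ratios lay between -4.82 and -2.16. The largest adjusted p of the 15 for the state effect in edgeR's test was 6.6e-05, that of EGR1. These genes, too, were picked by libraries that the test used.

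Ras signalling genes were the first check of the state. HRAS, the gene that the transgene is derived from, had 3221 and 3199 counts in the DMSO pair and 3373 and 5467 in the GC7 pair, and its log2 ratio was 1.03 (0.96 to 1.10). This call lies at the 2-fold limit and was lost with upper quartile scaling (0.91), with total count scaling (0.64) and with a filter of 400 counts (0.98). Counts of ESR1, the estrogen receptor, whose hormone-binding part makes Ras-ER proteins respond to 4-OHT, were 1666 and 839 and 1918 and 2021, with a log2 ratio of 0.05 (-0.07 to 0.17) in the DMSO pair and 0.73 (0.64 to 0.83) in the GC7 pair. Whether the reads of HRAS and ESR1 came from the transgene or from the genes of the cell cannot be told apart in gene counts. Among 17 measured genes of the Ras and MAP kinase list, 11 were called higher and 2 lower, beside 14% and 12.6% of all genes. Their median log2 ratio was 1.08, beside -0.02 for all genes. The phosphatases that dampen ERK were the highest of the list. DUSP4 had 195 and 585 and 502 and 1343 counts and a log2 ratio of 2.62 (2.39 to 2.87), with an adjusted p of 8.6e-06 in edgeR's test. DUSP6 had 576 and 1651 and 863 and 3472 counts and a log2 ratio of 2.56 (2.42 to 2.70), with an adjusted p of 3.7e-06 in the same edgeR test. SPRY4, a feedback inhibitor of receptor tyrosine kinase signalling, had 222 and 346 and 485 and 1049 counts and a log2 ratio of 1.67 (1.43 to 1.93). SPRY2, SPRED1, IER3, ETV4, ETV5, EPHA2 and PHLDA1 made up the rest of the higher genes with HRAS. The lower pair was EGR1, with 466 and 12 and 365 and 51 counts and a log2 ratio of -4.17 (-5.20 to -3.42), and the receptor EPHA4, with a log2 ratio of -1.38 (-1.90 to -0.92). With GC7, 8 genes of the list were called higher and 1 lower, beside 12% and 11.6% of all genes.

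The CDK inhibitors did not move together. CDKN1A, which encodes p21, had 1036 and 1365 and 2436 and 4034 counts and a log2 ratio of 1.44 (1.32 to 1.56), and its state effect had an adjusted p of 0.00028 in edgeR's test. CDKN2B, which encodes p15, had 18 and 19 and 42 and 89 counts and a log2 ratio of 1.06 (0.11 to 2.13), a call close to the 2-fold limit. CDKN2A, which encodes p16 and ARF, had 3 and 6 and 4 and 19 counts, too few to enter the comparison. CDKN2C, which encodes p18, was lower, with 227 and 9 and 304 and 27 counts and a log2 ratio of -3.52 (-4.76 to -2.67). CDKN1B, which encodes p27, had 297 and 43 and 571 and 108 counts and a log2 ratio of -1.73 (-2.24 to -1.28), and CDKN2D was lower as well, at -1.69. The pocket proteins had no call, with log2 ratios of -0.57 for RB1, -0.55 for RBL1 and -0.10 for RBL2. Over the 8 measured genes of this list, 2 were higher and 3 lower, beside 14% and 12.6% of all genes. The median log2 ratio of the list was -0.56.

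Of 11 measured G1 cyclins, kinases and E2F genes, 3 were called lower, beside 12.6% of all genes, and CCND1 alone higher, beside 14%. This D-type cyclin, a known target of Ras signalling, had 2851 and 8084 and 6064 and 17609 counts and a log2 ratio of 2.54 (2.48 to 2.61). E2F2 had 32 and 0 counts in the DMSO pair, at least 5.2-fold lower, the cyclin CCNE2 had a log2 ratio of -1.34 (-2.32 to -0.55) and the kinase CDK6 one of -1.19 (-1.58 to -0.83), and these 3 were called lower. CDK4 was just short of the call at -0.98. The list's median was -0.59, also with E2F2 at its bound.

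Mitotic genes were lower as a group. All 49 measured members had a log2 ratio below 0, 32 were called lower, beside 12.6% of all genes, and none higher, and the median was -1.35. With GC7, 32 were called lower, beside 11.6% of all genes, and the median was -1.11. Over all 4 libraries, edgeR's test called 40 of the 49 lower, beside 14.5% of all genes. MAD2L1, a spindle checkpoint protein, had 206 and 14 and 235 and 56 counts and a log2 ratio of -2.78 (-3.73 to -2.06). HMMR, a receptor for hyaluronan that also binds the spindle, had 145 and 12 and 225 and 47 counts and a log2 ratio of -2.49 (-3.54 to -1.71). CCNA2, the cyclin of S phase and G2, had 558 and 53 and 763 and 135 counts and a log2 ratio of -2.34 (-2.79 to -1.95). These 3 genes were lower in each OIS library than in each proliferating library. At the other end of the list, the kinetochore genes CENPF, at -0.17, and CENPE, at -0.15, and the phosphatase gene CDC25B, at -0.13, were close to equal in the DMSO pair, and their log2 ratios in the GC7 pair were -0.89, -0.88 and -0.71.

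DNA replication genes were lower in DMSO and less clearly so with GC7. Of 43 measured genes, 22 were called lower and none higher in the DMSO pair, where 12.6% of all genes were lower, with a median of -1.06, while in the GC7 pair 2 were called lower, a smaller share than the 11.6% of all genes, and the median was -0.44. The difference between the pairs was not tested. The edgeR test called 16 of the 43 lower, beside 14.5% of all genes. GINS2, a part of the replicative helicase, had 92 and 8 and 82 and 32 counts and a log2 ratio of -2.39 (-3.74 to -1.44) in the DMSO pair and -0.69 (-1.34 to -0.09) in the GC7 pair. CDC45, its partner in the helicase, had 142 and 18 and 129 and 58 counts and a log2 ratio of -1.90 (-2.73 to -1.23) and -0.49 (-0.97 to -0.04). MCM6, a subunit of the MCM ring, had 689 and 92 and 682 and 144 counts and a log2 ratio of -1.86 (-2.19 to -1.55) and -1.58 (-1.85 to -1.32). Of the 3 genes, MCM6 was thus called lower in both pairs. POLE and POLA2, polymerase subunits, had ratios of 0.30 and 0.07.

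Enzymes that make deoxynucleotides followed the same direction, with 6 of 10 called lower, beside 12.6% of all genes, and 1 higher, beside 14%. Their median was -1.20. TK1, thymidine kinase, had 1033 and 83 and 1095 and 222 counts and a log2 ratio of -2.59 (-2.94 to -2.27). TYMS, thymidylate synthase, had 376 and 38 and 335 and 102 counts and a log2 ratio of -2.25 (-2.79 to -1.78). RRM2, the ribonucleotide reductase subunit of S phase, had 1360 and 180 and 1020 and 377 counts and a log2 ratio of -1.87 (-2.11 to -1.65). DUT, DTYMK and DCK were the other lower genes. RRM2B, the damage-induced subunit of the same enzyme, went the other way, with 195 and 253 and 408 and 645 counts and a log2 ratio of 1.41 (1.14 to 1.69).

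Replication-dependent histones, whose mRNAs lack a poly(A) tail and are made in S phase, were lower without exception. All 49 measured genes were called lower in the DMSO pair, beside 12.6% of all genes, with log2 ratios between -3.66 and -1.16 and a median of -2.20. With GC7, 48 were called lower, beside 11.6% of all genes, and the median was -1.72. The edgeR test called all 49 lower, beside 14.5% of all genes. HIST1H2BM had 640 and 24 and 1176 and 109 counts and a log2 ratio of -3.66 (-4.35 to -3.11). HIST1H4A had 470 and 27 and 837 and 125 counts and a log2 ratio of -3.05 (-3.70 to -2.52). HIST1H2BB had 529 and 32 and 794 and 109 counts and a log2 ratio of -2.98 (-3.57 to -2.49). The scaled level summed over all listed histones was 10822 CPM in proliferating DMSO and 11774 in proliferating GC7, against 2448 in OIS DMSO and 3667 in OIS GC7. Histone genes are near-identical copies, 7 of the 56 listed were at 0 in all 4 libraries, and no source used here states how reads that match several of them were treated, so that values of single histone genes are uncertain.

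**Figure D2:**
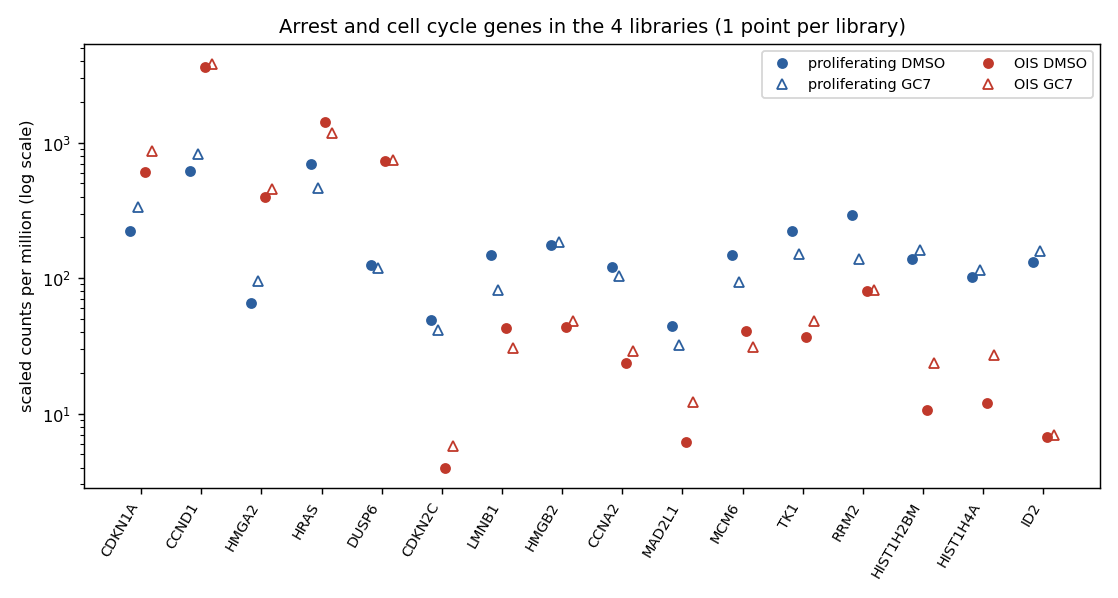
Scaled CPM (log scale) of 16 arrest and cell cycle genes in each of the 4 libraries, 1 point per library, with circles for DMSO and triangles for GC7 and with proliferating cells in blue and OIS cells in red. CDKN1A, CCND1, HMGA2, HRAS and DUSP6 are higher in both OIS libraries than in both proliferating libraries, while the other 11 genes, from CDKN2C to ID2, are lower, for example HIST1H2BM at 10.7 in OIS DMSO and 138.8 in proliferating DMSO.

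Promoters of these 3 groups were searched for short motifs known from cell cycle genes. Stretches from 200 bases before to 30 bases after the start are given for 5 lower genes, because they show where the motifs lie (RefSeq, GRCh38.p14). HMMR (chr5:163460432-163460661, plus strand) stands for the mitotic genes, MCM6 (chr2:135876414-135876643, minus strand) and GINS2 (chr16:85688925-85689154, minus strand) for replication, and HIST1H2BM (chr6:27814822-27815051, plus strand) and HIST1H2BB (chr6:26043684-26043913, minus strand) for histones. In all 5, capitals mark every CHR element (TTTGAA or its variant TTTAAA), E2F core (TTGGCGC or TTCCCGC) and CCAAT box on either strand. The core in GINS2 reads GCGGGAA on the shown strand, and a CCAAT box on the other strand reads ATTGG.
HMMR: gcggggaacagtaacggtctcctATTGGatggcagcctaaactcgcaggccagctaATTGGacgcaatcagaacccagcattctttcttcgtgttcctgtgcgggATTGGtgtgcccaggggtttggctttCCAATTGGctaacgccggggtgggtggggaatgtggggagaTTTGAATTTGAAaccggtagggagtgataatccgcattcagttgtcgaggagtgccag
MCM6: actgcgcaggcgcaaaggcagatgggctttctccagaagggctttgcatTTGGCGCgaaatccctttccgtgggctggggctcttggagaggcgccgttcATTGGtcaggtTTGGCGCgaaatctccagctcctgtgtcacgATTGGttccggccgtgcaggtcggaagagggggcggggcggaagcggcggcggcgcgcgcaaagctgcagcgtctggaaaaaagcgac
GINS2: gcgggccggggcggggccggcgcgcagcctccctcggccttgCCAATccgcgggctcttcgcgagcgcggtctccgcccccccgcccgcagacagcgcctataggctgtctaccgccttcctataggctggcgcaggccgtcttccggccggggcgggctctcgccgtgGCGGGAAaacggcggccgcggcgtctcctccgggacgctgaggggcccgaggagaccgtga
HIST1H2BM: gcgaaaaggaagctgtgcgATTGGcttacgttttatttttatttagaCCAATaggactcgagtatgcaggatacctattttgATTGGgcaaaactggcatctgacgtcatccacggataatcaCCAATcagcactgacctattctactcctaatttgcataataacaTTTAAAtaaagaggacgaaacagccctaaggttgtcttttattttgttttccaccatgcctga
HIST1H2BB: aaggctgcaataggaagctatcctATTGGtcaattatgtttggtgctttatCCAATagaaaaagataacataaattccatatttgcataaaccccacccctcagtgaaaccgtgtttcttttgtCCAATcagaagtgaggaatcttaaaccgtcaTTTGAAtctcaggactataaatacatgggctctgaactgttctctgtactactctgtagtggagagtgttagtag
HMMR held 2 adjoining CHR elements that begin 28 and 22 bases before the start and 5 CCAAT boxes, of which those 69 and 66 bases before the start overlap in the letters CCAATTGG. MCM6 held the same E2F core 151 and 89 bases before the start. Both histone promoters also held letters that match the CHR pattern, in HIST1H2BM the variant 33 bases and in HIST1H2BB TTTGAA 45 bases before the start. The match in HIST1H2BM lies in a run of A and T letters. Whether it serves as a CHR element was not tested.

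Promoters were searched over 300 bases a gene, 250 before and 50 after the start, and on both strands. The CHR element or its variant TTTAAA was in 35 of 41 mitotic promoters (85.4%), beside 24.0% of all 35116 promoters. It was in 22 of 44 histone promoters and in 1 of 37 replication promoters (2.7%). The Ras and MAP kinase list had it in 5 of 11 promoters and the DNA damage and stress response list in 7 of 21. It was in 3 of 11 promoters of the 15 highest and in 3 of 10 of the 15 lowest genes. SASP cytokines had it in 2 of 12, lysosomal genes in 2 of 18 and metalloproteinases and their inhibitors in none of 5. The histone share was thus close to that of the Ras and MAP kinase list, which was mostly higher. An E2F core (TTCCCGC or TTGGCGC) was in 22 of 37 replication promoters (59.5%), beside 9.2% of all promoters. Among the 711 promoters of tested genes with a name, its share was 15.6%. The mitotic share, 5 of 41 (12.2%), and the histone share, 6 of 44 (13.6%), lay below that. The DNA damage and stress response list had the core in 5 of 21 promoters (23.8%), and lysosomal genes in 1 of 18. It was in none of the Ras and MAP kinase, SASP cytokine and metalloproteinase promoters, nor in those of the 15 highest and 15 lowest genes. A CCAAT box was in 39 of 44 histone promoters (88.6%), in 31 of 41 mitotic promoters (75.6%) and in 21 of 37 replication promoters (56.8%), beside 34.6% of all promoters and 45.6% of the 711 promoters of tested genes with a name. The CCAAT box was thus common in all 3 groups, but not in them alone. It was in 12 of 21 promoters of the DNA damage and stress response list (57.1%), no less than in replication promoters. SASP cytokines had it in 6 of 12 promoters, and metalloproteinases and their inhibitors in 3 of 5. The Ras and MAP kinase list and the 15 highest genes each had it in 5 of 11. Shares were lower for lysosomal promoters, 3 of 18 (16.7%), and for the 15 lowest genes, 2 of 10. The matches are a description of letters, not of binding. The promoter table held 41 of the 49 mitotic, 37 of the 43 replication and 44 of the 49 histone genes.

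Nuclear architecture and chromatin genes were divided. LMNB1, lamin B1, had 680 and 96 and 600 and 141 counts and a log2 ratio of -1.78 (-2.11 to -1.47), with an adjusted p of 9e-05 in edgeR's test, while LMNA, the gene for lamins A and C, had a ratio of 0.07 (0.01 to 0.13). HMGB1 and HMGB2, abundant chromatin proteins, had log2 ratios of -2.06 (-2.95 to -1.36) and -2.02 (-2.34 to -1.72), and HMGN2, a nucleosome-binding protein, one of -1.91 (-2.35 to -1.53). CBX5, which encodes HP1 alpha, and the methyltransferase EZH2 were lower too. HMGA1 and HMGA2, architectural proteins of senescence-associated heterochromatin, were the 2 higher genes of the list. HMGA2 had 304 and 897 and 695 and 2102 counts and a log2 ratio of 2.60 (2.41 to 2.79), and HMGA1 had 437 and 1013 and 912 and 2078 counts and a log2 ratio of 2.25 (2.09 to 2.42). In all, 2 of 12 measured genes were higher and 6 lower, beside 14% and 12.6% of all genes, with a median of -1.08. The numbers of calls were the same in the GC7 pair.

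Among SASP cytokines and other secreted factors, 11 of 17 measured genes were called higher and 3 lower, beside 14% and 12.6% of all genes. Their median log2 ratio was 1.43. INHBA, a subunit of activins, had 3 and 104 and 17 and 292 counts and a log2 ratio of 5.63 (4.57 to 8.46). IL1B had 45 and 390 and 162 and 1069 counts and a log2 ratio of 4.12 (3.71 to 4.64). IL1A, the other interleukin-1 gene, had 0 and 13 and 2 and 29 counts, at least 8.9-fold higher in OIS DMSO. The growth factor BMP2, at 5.12 (4.04 to 7.96), ANGPTL4, at 3.25 (2.08 to 5.61), and STC1 were also among the highest. SPP1, osteopontin, had 52 and 226 and 139 and 389 counts and a log2 ratio of 3.13 (2.72 to 3.62). PTX3, a pentraxin of innate immunity, had 2901 and 2940 and 3056 and 8728 counts and a log2 ratio of 1.06 (0.99 to 1.13) in the DMSO pair and 2.17 (2.11 to 2.23) in the GC7 pair. GDF15, a stress-induced cytokine, had 379 and 387 and 2795 and 1146 counts and a log2 ratio of 1.07 (0.86 to 1.28), against -0.63 (-0.73 to -0.53) in the GC7 pair. The highest level of GDF15 was thus that of proliferating GC7, and its adjusted p for the state effect in edgeR's test was 0.69. The calls of PTX3 and GDF15 in the DMSO pair were lost with upper quartile scaling, at 0.94 and 0.95, and with total count scaling, at 0.67 and 0.68. Lower genes included growth factors. CSF1, the macrophage growth factor, had 660 and 56 and 1298 and 96 counts and a log2 ratio of -2.50 (-2.94 to -2.12). FGF2, a mitogen of fibroblasts, had 632 and 65 and 1503 and 160 counts and a log2 ratio of -2.23 (-2.63 to -1.87). IL7, with 14 and 0 and 24 and 4 counts, was at least 2.3-fold lower. IL6 had 0 and 4 and 7 and 10 counts, too few to enter the comparison, as did 9 further listed genes, among them LIF, CSF2, CSF3 and TNF. The median of this list was 1.43 also with IL1A and IL7 at their bounds.

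Chemokines were few and went both ways. CXCL8, which attracts neutrophils, had 61 and 144 and 181 and 420 counts and a log2 ratio of 2.25 (1.84 to 2.74), with an adjusted p of 2.6e-05 in edgeR's test. CXCL1, of the same family, had 23 and 39 and 61 and 112 counts and a log2 ratio of 1.74 (1.02 to 2.61). CCL2, which attracts monocytes, was lower, with 610 and 58 and 526 and 148 counts and a log2 ratio of -2.34 (-2.77 to -1.96), and CXCL12 was lower as given above. The other 10 listed chemokines did not reach 40 counts. MIF had 8 and 7 and 23 and 10 counts, and the interval of its log2 ratio, 0.75 (-0.85 to 2.51), included equal levels. NF-kB genes had 3 of 12 called higher, beside 14% of all genes, and none lower, with a median of -0.13. These 3 were RELB and NFKB2, at 1.76 (1.05 to 2.60) and 1.66 (1.30 to 2.06), which form the dimer of the non-canonical pathway, and NFKBIZ, at 1.26 (0.86 to 1.69). NFKB1, at -0.32 (-0.63 to -0.02), and the inhibitor NFKBIA, at -0.19 (-0.51 to 0.12), had no call. None of 4 measured EGF-family growth factors was called, and EREG had a log2 ratio of -0.21 (-0.35 to -0.07).

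AP-1 sites (TGACTCA or its reverse complement TGAGTCA) were in 2 of 12 SASP cytokine promoters (16.7%), beside 4.9% of all promoters, and in none of the mitotic, replication or histone promoters. They were also in none of 11 promoters of the 15 highest genes and none of 5 of metalloproteinases and their inhibitors. The Ras and MAP kinase list had them in 1 of 11, the DNA damage and stress response list in 2 of 21 and lysosomal promoters in 1 of 18. An NF-kB site was in 2 of 11 promoters of the 15 highest genes (18.2%), beside 2.4% of all promoters. It was in 1 of 12 SASP cytokine, 3 of 41 mitotic, 1 of 37 replication and 1 of 44 histone promoters. The other lists searched and the 15 lowest genes had none. IL1A (chr2:112784371-112784600, minus strand) and CXCL8 (chr4:73740369-73740598, plus strand) are given from 200 bases before to 30 after the start (RefSeq, GRCh38.p14). Both were higher and were picked because they hold AP-1 sites, which are in capitals. CXCL8 is a chemokine gene, and promoters of the chemokine list were not counted in the shares above.
IL1A: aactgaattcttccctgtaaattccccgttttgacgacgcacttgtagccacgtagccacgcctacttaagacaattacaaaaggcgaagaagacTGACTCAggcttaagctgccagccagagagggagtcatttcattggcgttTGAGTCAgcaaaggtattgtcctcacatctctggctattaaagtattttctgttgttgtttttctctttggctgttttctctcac
CXCL8: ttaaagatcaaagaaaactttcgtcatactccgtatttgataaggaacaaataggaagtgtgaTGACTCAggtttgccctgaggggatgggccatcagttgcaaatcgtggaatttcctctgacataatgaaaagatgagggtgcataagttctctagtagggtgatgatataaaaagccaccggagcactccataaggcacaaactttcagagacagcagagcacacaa
The sites begin 105 and 55 bases before the start of IL1A and 137 bases before that of CXCL8.

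The protease groups held some of the largest differences. Of 11 measured matrix metalloproteinases and their inhibitors, 6 were called higher and 1 lower, beside 14% and 12.6% of all genes. Their median was 1.10. MMP1, the interstitial collagenase, had 834 and 9326 and 1733 and 20215 counts and a log2 ratio of 4.52 (4.42 to 4.63). MMP14, a membrane-bound collagenase that activates MMP2, had 1589 and 6347 and 4883 and 13288 counts and a log2 ratio of 3.04 (2.96 to 3.12). MMP2 itself had 2974 and 3100 and 6095 and 6497 counts and a log2 ratio of 1.10 (1.03 to 1.17), and the stromelysins MMP3 and MMP10 had log2 ratios of 1.99 (1.69 to 2.31) and 2.23 (1.37 to 3.39). Inhibitors did not follow a common direction. TIMP3, which is bound to the matrix, had 1595 and 5042 and 2838 and 13103 counts and a log2 ratio of 2.70 (2.62 to 2.78), while TIMP1 had a ratio of -0.81 (-0.92 to -0.71) and TIMP2 one of 0.85 (0.77 to 0.94), neither called. MMP19 was called lower, at -1.02 (-1.97 to -0.22). In the plasminogen system, 4 of the 5 genes described here were called higher, beside 14% of all genes, and none lower. PLAU, the urokinase, had 999 and 8537 and 2081 and 20978 counts and a log2 ratio of 4.13 (4.04 to 4.23), next to PLAT above. The inhibitors SERPINB2 and SERPINE2 were both higher, with log2 ratios of 1.68 (1.48 to 1.89) and 1.06 (1.0 to 1.13). The urokinase receptor PLAUR was not called, at 0.25 (0.07 to 0.44).

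IGF binding proteins were mostly lower. IGFBP5 had 10765 and 302 and 20402 and 858 counts and a log2 ratio of -4.11 (-4.28 to -3.95). IGFBP3, the main carrier of IGFs in serum, had 1680 and 79 and 3167 and 180 counts and a log2 ratio of -3.36 (-3.71 to -3.04). IGFBP6 and IGFBP2 were lower at -1.90 (-2.04 to -1.75) and -1.29 (-1.94 to -0.73), and IGFBP4 and IGFBP7 had no call, at -0.48 (-0.56 to -0.39) and 0.45 (0.39 to 0.51). In all, 4 of 6 were called lower, beside 12.6% of all genes, with a median of -1.59.

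Collagens went in different directions, and members of a type did not always share a call. The fibrillar collagen COL1A1 had 94126 and 7316 and 117981 and 13139 counts and a log2 ratio of -2.64 (-2.68 to -2.61), and COL3A1 had 7044 and 348 and 9490 and 626 counts and a log2 ratio of -3.30 (-3.46 to -3.14). COL1A2, the partner of COL1A1 in type I collagen, had 93082 and 27860 and 133396 and 39237 counts and a ratio of -0.70 (-0.72 to -0.68), short of the call. The type IV collagens of basement membranes were higher instead. COL4A1 had 5064 and 13701 and 7440 and 17093 counts and a log2 ratio of 2.48 (2.43 to 2.52), and COL4A2 had 4323 and 11065 and 8012 and 12320 counts and a log2 ratio of 2.40 (2.35 to 2.45). COL6A1 and COL6A2, of the beaded filament collagen, were higher at 2.14 (2.09 to 2.20) and 1.63 (1.59 to 1.68), while COL6A3 had no call. Over the 20 collagens of the list, which does not hold COL10A1, 7 were higher and 4 lower, beside 14% and 12.6% of all genes. Their median was 0.64. In the GC7 pair, 5 were higher and 7 lower, beside 12% and 11.6% of all genes, with a median of -0.45. Among 28 other matrix genes, 7 were higher and 5 lower in the DMSO pair, beside 14% and 12.6% of all genes. Their median was -0.07. The proteoglycan DCN had 2869 and 45 and 4582 and 109 counts and a log2 ratio of -4.93 (-5.41 to -4.53), and LUM had 11060 and 322 and 17305 and 802 counts and a log2 ratio of -4.06 (-4.23 to -3.90). VCAN, a large proteoglycan, was the highest at 3.91 (2.73 to 6.76). The laminin chain LAMC1 had 7401 and 13585 and 13341 and 17848 counts and a log2 ratio of 1.92 (1.88 to 1.96). LOX, which crosslinks collagen, and TNC, tenascin C, were higher at 1.91 (1.81 to 2.02) and 1.68 (1.56 to 1.80). THBS1 was lower at -1.06 (-1.09 to -1.04).

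Contractile and cytoskeletal genes were lower in 9 of 20 cases and higher in 2, beside 12.6% and 14% of all genes. Their median was -0.72. The lowest was CNN1, a calponin, with 32 and 2 and 33 and 3 counts and a log2 ratio of -2.61 (-6.07 to -0.99). Tropomyosins followed, with TPM4 at -1.48 (-1.66 to -1.30) and TPM1 at 5198 and 912 and 6667 and 2399 counts and a log2 ratio of -1.47 (-1.57 to -1.37). The calponin CNN3, the actins ACTB and ACTG1, TAGLN, MYL9 and LMOD1 were the other lower genes. VIM, the intermediate filament of fibroblasts, had 9538 and 10300 and 7822 and 14278 counts and a log2 ratio of 1.15 (1.11 to 1.19), and MYH9, non-muscle myosin, one of 1.05 (1.0 to 1.11). With GC7, 2 of the 20 were called lower, close to the 11.6% of all genes, and 1 higher, beside 12%.

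Of 26 DNA damage and stress response genes, 16 were called higher and 1 lower, beside 14% and 12.6% of all genes. Their median was 1.16. MDM2, a ubiquitin ligase, had 258 and 479 and 676 and 1073 counts and a log2 ratio of 1.93 (1.71 to 2.16). PMAIP1, the apoptosis activator NOXA, had 189 and 468 and 566 and 1089 counts and a log2 ratio of 2.34 (2.10 to 2.60). SESN2, a stress-induced regulator of mTORC1, had 54 and 118 and 692 and 233 counts, and its ratio was 2.14 (1.69 to 2.66) in the DMSO pair and -0.91 (-1.13 to -0.70) in the GC7 pair. The death receptors FAS and TNFRSF10B were higher at 1.56 (1.29 to 1.85) and 1.92 (1.74 to 2.11), and the kinase PLK2 was lower at -2.37 (-2.81 to -1.99). In the BCL2 family, 2 of 8 genes were called higher, beside 14% of all genes, and none lower. The higher genes were PMAIP1 and the survival gene BCL2L1, at 1.32 (1.08 to 1.58).

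Of 14 hypusination and polyamine genes, 2 were called higher and 2 lower, close to the shares of all genes (14% and 12.6%), and the median was -0.55. The higher genes were SMOX and SAT1, which recycle polyamines. SMOX, which oxidises spermine to spermidine, had 25 and 51 and 155 and 85 counts and a log2 ratio of 2.01 (1.35 to 2.82), against -0.21 (-0.61 to 0.18) in the GC7 pair. SAT1, which acetylates spermidine and spermine, had 30 and 51 and 55 and 120 counts and a log2 ratio of 1.76 (1.13 to 2.51), with an adjusted p of 0.00066 in edgeR's test, against 0.23 for SMOX. SMOX was thus lowest in proliferating DMSO and similar in the other 3 libraries, with scaled levels of 5.4 and 22.7 CPM in the DMSO pair and 21.2 and 18.3 CPM in the GC7 pair. The synthesis enzymes ODC1, SRM and SMS had log2 ratios of -0.76 (-1.11 to -0.42), -0.64 (-0.92 to -0.38) and -0.70 (-1.27 to -0.18), none called. PAOX had 28 and 7 and 25 and 18 counts and a ratio of -0.90 (-2.40 to 0.27). OAZ1, the antizyme that directs ODC1 to the proteasome, was called lower at -1.13 (-1.73 to -0.60). EIF5A, the factor that carries hypusine, had 1074 and 381 and 1827 and 835 counts and a log2 ratio of -0.45 (-0.63 to -0.28), and its paralog EIF5A2 was called lower at -1.04 (-1.79 to -0.40). The hypusination enzymes DHPS and DOHH had 252 and 95 and 65 and 20 counts in the DMSO pair and ratios of -0.36 (-0.72 to -0.02) and -0.64 (-1.46 to 0.08).

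Genes of the translation apparatus differed by less. Of 71 measured cytosolic ribosomal protein genes, 8 were called lower, a share close to the 12.6% of all genes, and none higher in the DMSO pair, and 64 had a ratio below 0, with a median of -0.62. In the GC7 pair the median was 0.25, so that the direction was not kept. There, 2 were called higher and 2 lower, beside 12% and 11.6% of all genes. RPS29 had 225 and 36 and 192 and 178 counts and a log2 ratio of -1.59 (-2.15 to -1.09) and 0.55 (0.25 to 0.85), and RPS23 had 763 and 143 and 830 and 489 counts and a log2 ratio of -1.37 (-1.64 to -1.12) and -0.10 (-0.27 to 0.06). The summed scaled level of the list was 11893 and 7770 CPM in the DMSO pair and 7514 and 9174 CPM in the GC7 pair. Ribosomal protein genes have many processed pseudogenes, and the counts of single members are uncertain for that reason. Mitochondrial ribosomal proteins, which are translated in the cytosol, had 6 of 76 called lower, a smaller share than that of all genes, and none higher. Their median was -0.37, and 58 of the 76 had a ratio below 0. Over all 4 libraries, edgeR's test called 18 of the 76 lower and 1 higher, beside 14.5% and 18% of all genes. MRPL11 had 165 and 28 and 311 and 86 counts and a log2 ratio of -1.50 (-2.15 to -0.93), and MRPL32, at the other end, one of 0.87 (0.59 to 1.16). Of 35 initiation and elongation factors, EIF4G1, the scaffold of the cap-binding complex, was called higher at 1.18 (1.08 to 1.27). EEF1A1 and EIF4EBP1, the inhibitor of eIF4E, were lower at -1.39 (-1.74 to -1.07) and -1.28 (-1.72 to -0.87). These counts, 1 and 2 of 35, stand beside 14% of all genes called higher and 12.6% lower. The median of the list was -0.27. None of 48 nuclear-encoded respiratory chain subunits was called, and their median was -0.17.

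Lysosomal genes were higher in 16 of 27 cases, beside 14% of all genes, and lower in none, with a median of 1.19. Over all 4 libraries, edgeR's test called 21 of them higher, beside 18% of all genes. NPC1, which exports cholesterol from lysosomes, had 1066 and 3372 and 1916 and 3052 counts and a log2 ratio of 2.70 (2.60 to 2.80). NEU1, a sialidase, was next at 2.55 (1.91 to 3.39), and FUCA1, a fucosidase, had 160 and 348 and 211 and 782 counts and a log2 ratio of 2.15 (1.89 to 2.44). GLB1, the galactosidase behind the staining of senescent cells, had 696 and 768 and 1305 and 1357 counts and a log2 ratio of 1.18 (1.03 to 1.33). The calcium channel MCOLN1 and the cathepsins CTSK, CTSB, CTSD and CTSZ were higher too, with log2 ratios between 1.07 and 1.99. SQSTM1, the autophagy receptor p62, was not called in the DMSO pair, at 0.41 (0.32 to 0.51), and was lower in the GC7 pair, at -1.14 (-1.21 to -1.08).

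Metabolic and stress genes gave smaller groups, whose counts stand beside 14% of all genes called higher and 12.6% lower. In glycolysis, 4 of 21 genes were called higher and none lower, with a median of 0.32. The glucose transporter SLC2A1 had 2888 and 7211 and 4971 and 11089 counts and a log2 ratio of 2.36 (2.30 to 2.42), the lactate exporter SLC16A3 one of 1.61 (1.55 to 1.66) and hexokinase HK2 one of 1.17 (0.95 to 1.39). Cholesterol genes were higher in 3 of 19 cases and lower in 1 with a median of 0.28. In the GC7 pair 11 were higher, beside 12% of all genes in that pair, and the median was 1.16. DHCR7, the last enzyme of cholesterol synthesis, had 1174 and 1782 and 1025 and 2650 counts and a log2 ratio of 1.64 (1.54 to 1.75). Among 24 ER chaperones and stress genes, 5 were higher and 4 lower. The chaperone HSP90B1 had 7676 and 9466 and 9617 and 12381 counts and a log2 ratio of 1.34 (1.30 to 1.39). The serine synthesis gene PHGDH had 773 and 71 and 4416 and 364 counts and a log2 ratio of -2.39 (-2.78 to -2.05). DDIT3, PSAT1 and TRIB3 were lower with it, while CHAC1 was higher at 2.22 (2.0 to 2.45), as was SESN2, given above. Of 19 NRF2 target and antioxidant genes, 4 were lower and 1 higher. NQO1, a quinone reductase, had 13727 and 1409 and 33482 and 3213 counts and a log2 ratio of -2.24 (-2.32 to -2.16), and HMOX1, heme oxygenase, had 468 and 93 and 1682 and 123 counts and a ratio of -1.28 (-1.63 to -0.97), while the cystine transporter SLC7A11 was higher at 1.56 (1.49 to 1.64) in the DMSO pair and had no call, at -0.15 (-0.20 to -0.10), in the GC7 pair. Of 11 cytosolic heat shock genes, HSPB1 was lower at -1.60 (-1.75 to -1.46) and HSPH1 higher at 1.23 (1.09 to 1.37). Under scaling by total count, the medians of glycolysis, cholesterol, heat shock and BCL2 genes, 0.32, 0.28, 0.14 and 0.19, were -0.06, -0.10, -0.25 and -0.19, so that no direction is drawn from these medians.

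Of 16 interferon-stimulated genes, 4 were lower and 1 higher, beside 12.6% and 14% of all genes, with a median of -0.81. IFIT1, which binds viral RNA, had 341 and 19 and 398 and 26 counts and a log2 ratio of -3.08 (-3.87 to -2.46), and DDX58, the RNA sensor RIG-I, had 57 and 111 and 100 and 146 counts and a log2 ratio of 1.98 (1.53 to 2.49). Among 32 proteasome subunits, 4 were lower, close to the 12.6% of all genes, and 1 higher, and the immunoproteasome subunits PSMB10, at -2.37 (-3.42 to -1.58), and PSMB9, at least 2.8-fold lower, were the lowest. None of 3 measured metallothioneins was called in the DMSO pair.

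Markers of fibroblasts were present in all libraries. All 18 listed markers were measured, and their summed scaled level was 57648 and 38954 CPM in the DMSO pair and 52126 and 29493 CPM in the GC7 pair. Of these, 4 were called higher and 7 lower in the DMSO pair, beside 14% and 12.6% of all genes. The higher markers were VIM, PDGFRA, COL6A1 and COL6A2, and the lower ones DCN, LUM, COL3A1, COL1A1, TWIST1, TWIST2 and FAP. Markers of other cell types were rare. Of 12 epithelial markers KRT10 alone was measured, and the summed level of the list lay between 72.7 and 233.8 CPM. The blood cell list had a summed level of 30.8 and 20.2 CPM in the proliferating libraries and of 149.0 and 179.9 in the OIS libraries, which was nearly all CD14, the co-receptor for lipopolysaccharide, at 117 and 334 and 124 and 830 counts and a log2 ratio of 2.54 (2.25 to 2.87). PTPRC, the defining gene of white blood cells, had 19 and 0 and 23 and 0 counts, and 8 of the 14 listed blood markers were at 0 in all 4 libraries. ROBO4 was the one measured endothelial marker, with 2 and 26 and 27 and 44 counts. The neural and melanocyte list lay between 21.1 and 43.2 CPM in sum. Whether other cells added to the differences was not tested.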

How the data were processed

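The authors used STAR, given as version 2.5.3a by the submitters' notes, for alignment to hg19 and featureCounts version 1.5.1 with GENCODE version 19 for counting, and deposited raw counts, whole numbers per gene and library without normalization. The headers give no option for strand, multi-mapping or overlapping features. Features carry Ensembl numbers without symbols. Names were given to these numbers by hand, from memory, without a table that pairs them, and were set against RefSeq (GRCh38.p14). A name was kept where chromosome and strand were equal and the starts, in different builds, lay within 3 Mb. Of 914 names first written, 7 failed, 6 because the number was not in the tables and 1 on strand. For these, 6 other numbers were then found that passed, and 1 name was removed. A further 101 names were given to features after their ratios had been seen, most of them for high or low ratios. The resulting 1014 names therefore all pass, and 215 of them had no strand to compare. A limit of 3-fold on the difference in gene span was tried first and dropped, and 49 of the 1014 names exceed it. This check would not detect a swap between neighbouring genes. In a closer one, whose limits were set after its first values had been seen, the shift between builds lay within 3 kb of that of 1 of up to 6 neighbouring names for 981 names and did not for 33, which were kept. Members and the 39 gene lists were chosen with earlier results of these data known.

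All else was computed from the deposited counts. Nuclear features with a sum of 40 or more counts were scaled with TMM in edgeR version 4.0.16 (R version 4.3.3). Intervals are exact Clopper-Pearson intervals of the share of 2 scaled libraries. The quasi-likelihood fit of edgeR included treatment and state, with Benjamini-Hochberg adjustment over all 11128 genes at 0.05. Named genes are the 15 highest and 15 lowest with at least 200 counts in the DMSO pair, genes the study names, and the 3 highest and 3 lowest of each list with at least 100 counts. Results of 2 genes are not reported here, and their lists were counted without them. Other members named by their ratio were chosen after their values were seen. The scripts were tested on simulated data. Alternatives were 3 other scalings, filters at 400 and at 1 count, a prior count of 5, genes with at least 500 exonic bases, a fold limit of 1.5, the 2-fold limit alone, edgeR with state alone, DESeq2 version 1.42.0 and the GC7 pair.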

Additional observations from a re-analysis of the deposited data

Results flagged for a closer look

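The mitochondrial genome took 12.16% of the counts in OIS DMSO, beside 2.886% in proliferating DMSO, 0.1411% in OIS GC7 and 0.02812% in proliferating GC7. It was flagged because these features are outside the comparison of nuclear genes.

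15 features had opposite calls in the DMSO pair and the GC7 pair, 10 of them higher and 5 lower in the DMSO pair. None of them carried a name here, and the difference between the pairs was not tested.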

How the results depend on the processing

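Replicate cultures could not be paired, because each condition has 1 library and the replicate number is 1 in all of them. Treatment is a term of the edgeR model, which called 2001 genes higher and 1609 lower, and with state alone 1618 and 1190 were called. The counts of genes called higher and lower, 1562 and 1399, were 956 and 2520 with total count scaling, 865 and 671 with a filter of 400 counts, and 2495 and 2322 with a 1.5-fold limit. All 956 higher genes under total count scaling were among the 1562, and all 1399 lower genes kept their call. Both follow from a shift of all ratios in the same direction and are no separate check. Total count scaling set the list medians to -1.73 (mitotic), -1.45 (replication), -2.59 (histones), -0.51 (NF-kB), -1.01 (cytosolic ribosomal proteins), -0.75 (mitochondrial ribosomal proteins), -0.66 (translation factors), -0.93 (hypusination and polyamines), -0.56 (respiratory chain), -1.16 (interferon-stimulated) and -0.66 (proteasome). It moved the median of all genes by a similar amount, to -0.40. With upper quartile scaling, the medians of cytosolic and mitochondrial ribosomal proteins were -0.74 and -0.48, and that of all genes was -0.13. In the GC7 pair, the cytosolic ribosomal proteins had the opposite sign, 0.25, and the medians were -0.44 for replication, -1.72 for histones, 0.08 for translation factors, 0.09 for the respiratory chain, 1.16 for cholesterol and -0.15 for the proteasome. The cause was not tested. DESeq2's Wald test called 789 genes lower where edgeR called 1609. No named gene with a call changed direction under the alternatives of scaling, filter and prior count. A call needs a 2-fold ratio, and no scaling moved the median of all genes beyond -0.40, so scaling could hardly change a direction. Of 149 named genes with a call in the DMSO pair, 17 fell under the 2-fold limit in at least 1 setting. Of these, 14 did so with total count and 7 with upper quartile scaling. The 17 were BCL2L1, EIF4G1, EIF5A2, GDF15, HK2, HRAS, HSP90B1, HSPH1, ISG15, MMP2, MYH9, NFKBIZ, PSMA7, PSMD2, PTX3, SERPINE2 and VIM. Genes given in the text outside the rule for named genes, such as CDKN2B and GLB1, were not varied. Among all 233 named genes, with or without an edgeR call, 22 had a state effect called by edgeR's test but not by DESeq2's Wald test. 8 lists with fewer than 6 measured members were not varied. With 2241833 effective counts in OIS DMSO, 1 count there is 0.446 scaled CPM, and genes such as IL6 and CDKN2A are below what this depth can compare.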
